A study of Rattus norvegicus with 9 samples.

Results

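The miR-30 family consists of the microRNAs miR-30a-5p, miR-30b-5p, miR-30c-5p, miR-30d-5p and miR-30e-5p. Its members were taken by name from a table of 201 mature rat microRNAs, in which 4 of the 5 names have an entry and miR-30e-5p has none. Their individual tags, the distinct sequences read in each library, were then followed in the deposited lists of single libraries. The small RNA came from exosomes, the small vesicles that cells release, of primary peritoneal macrophages washed from the peritoneal cavity of untreated rat. LPS+AS-IV cells were kept with 150 µM astragaloside IV for 24 h and then given lipopolysaccharide; astragaloside IV is a saponin isolated from the root of Astragalus. LPS cells received lipopolysaccharide, the endotoxin of Gram-negative bacteria that activates macrophages, at 100 ng/ml for 6 h, the same dose and time as in LPS+AS-IV. Control cells received 0.1% DMSO for 24 h. Each group had 3 libraries. Both agents were dissolved in DMSO, per the labels' protocols, but no 24 h DMSO treatment is listed for the LPS cells. All cells grew in medium with fetal bovine serum. Whether replicates came from separate animals or cultures is not stated, so the p-values speak only of the spread among these libraries, and that spread may be technical.

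MicroRNAs are loaded into Argonaute proteins and find target messages mainly by pairing through the seed, bases 2 to 8 from the 5′ end. The miR-30 members share 1 seed and therefore overlap in their predicted targets, and they are known to restrain epithelial-to-mesenchymal transition, in part through the transcription factor Snai1. In the peritoneum that transition is studied as a step of fibrosis, which the series title names. In the rat annotation of RefSeq (GRCr8), Mir30a lies next to Mir30c2, Mir30b next to Mir30d and Mir30c1 next to Mir30e, with 0 annotated genes between the partners of each pair, and Mir30c1 and Mir30e lie inside Nfyc, which encodes a subunit of the transcription factor NF-Y.

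Mature sequences from RefSeq (GRCr8), with the seed in capitals, show what sets the members apart, and miR-384-5p is added because it has the same seed.
miR-30a-5p: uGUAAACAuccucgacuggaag
miR-30c-5p: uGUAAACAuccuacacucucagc
miR-30e-5p: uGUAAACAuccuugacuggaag
miR-384-5p: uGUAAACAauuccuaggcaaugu
miR-30a-5p, miR-30c-5p and miR-30e-5p share their first 12 bases. miR-30a-5p and miR-30e-5p differ only by C13U, with positions counted from 1 at the 5′ end and the base of miR-30a-5p given first, whereas miR-30c-5p differs from either of them at 5 positions. No read of miR-384-5p, known as a neural microRNA, was found in any library.

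Deposited tags are shown next because forms of a member with different 3′ ends mostly received different names, and only mature names reached the table. Bases past the mature 3′ end are in capitals.
miR-30c-5p, 23 nt, named mature, 55 reads: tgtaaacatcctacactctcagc
miR-30c-5p, 24 nt, named hairpin, 231 reads: tgtaaacatcctacactctcagcT
miR-30c-5p, 21 nt, named hairpin, 28 reads: tgtaaacatcctacactctca
miR-30e-5p, 24 nt, named to an Rfam family, 76 reads: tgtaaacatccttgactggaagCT
The whole mature miR-30c-5p was named mature and entered the table, but with 1 more base it was named a hairpin tag. The whole mature miR-30e-5p with 2 more bases was named to the Rfam family of miR-30 precursors, Rfam being a database of structured RNA families. Tags with either of those names are outside the table.

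Most miR-30 reads were outside the table. Over the 9 libraries, 10436 reads were named mature or hairpin tags of the members, or to the Rfam family with the members' first 8 bases. Of these, 961 (9.21%) were mature and made up the table's counts. A further 917 (8.79%) were hairpin tags and 8558 (82.0%) carried the Rfam name. The Rfam family held another 15094 reads that did not begin like the members, and these were not used. The reads fell on 80 distinct tags, of which 12 were mature, 24 hairpin and 44 Rfam. The share outside the table was 46.8%, 73.1% and 99.96% in LPS+AS-IV 1, 2 and 3, 94.3%, 92.9% and 82.6% in LPS 1, 2 and 3, and 86.9%, 95.5% and 81.4% in Control 1, 2 and 3. LPS+AS-IV held both the lowest and the highest share, and the groups overlapped, at 73.3% ± 26.6, 89.9% ± 6.43 and 87.9% ± 7.09 in LPS+AS-IV, LPS and Control (SD, n = 3 each).

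**Figure D1:**
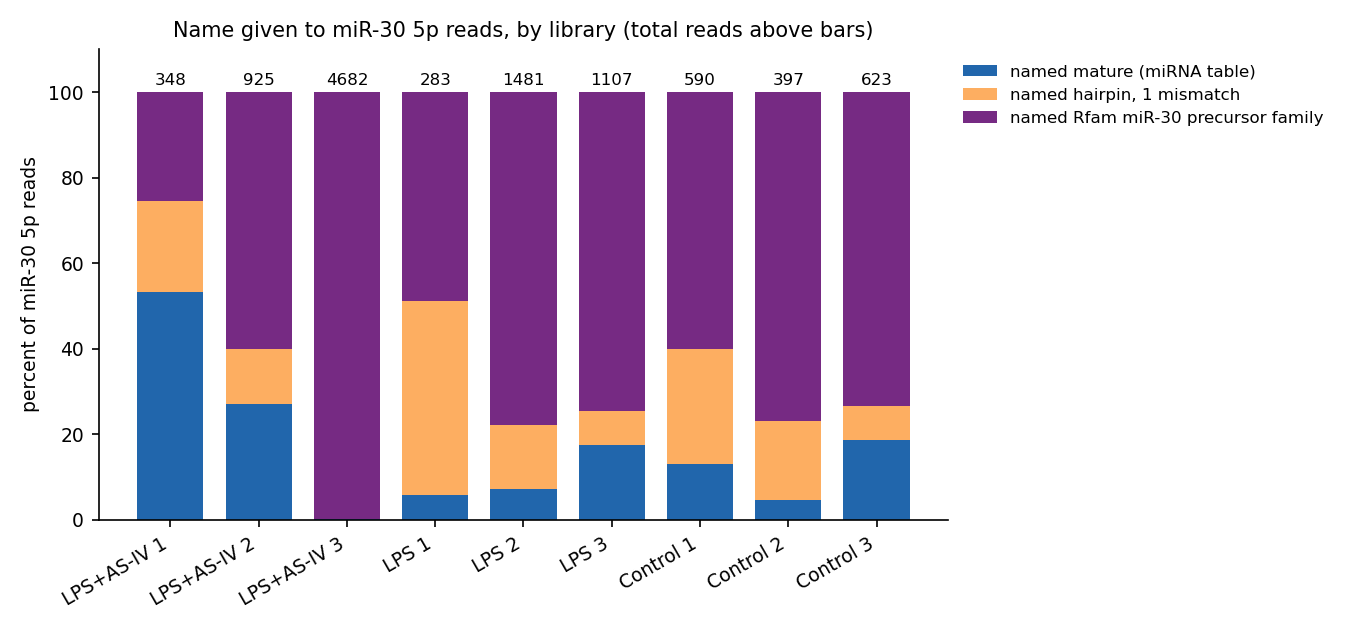
Percent of the miR-30 reads named mature, hairpin (listed with 1 mismatch) or Rfam family in each library of LPS+AS-IV, LPS and Control, as stacked bars with the library's miR-30 reads above each. LPS+AS-IV 3 had 2 mature reads beside 4679 Rfam reads, while LPS+AS-IV 1 had 185 mature reads beside 89 Rfam reads.

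The names went with different lengths for most reads, but they shared lengths. Tags of 24 nt held 83.9% of the family's reads, those of 23 nt 6.55% and those of 22 nt 4.96%. Hairpin tags were mostly a whole mature sequence with 1 further base, 848 of 917 reads (92.5%), whereas only 4 mature reads had that form. Rfam tags were mostly a whole mature sequence with 2 further bases, 7647 of 8558 reads (89.4%). Among the 961 mature reads, 517 were the whole mature sequence, 104 were shorter at the 3′ end, 256 had 3 further bases and 80 had 4. A further 33 hairpin reads were shorter at the 3′ end, and 887 Rfam and 36 hairpin reads had another base inside the sequence.

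**Figure D2:**
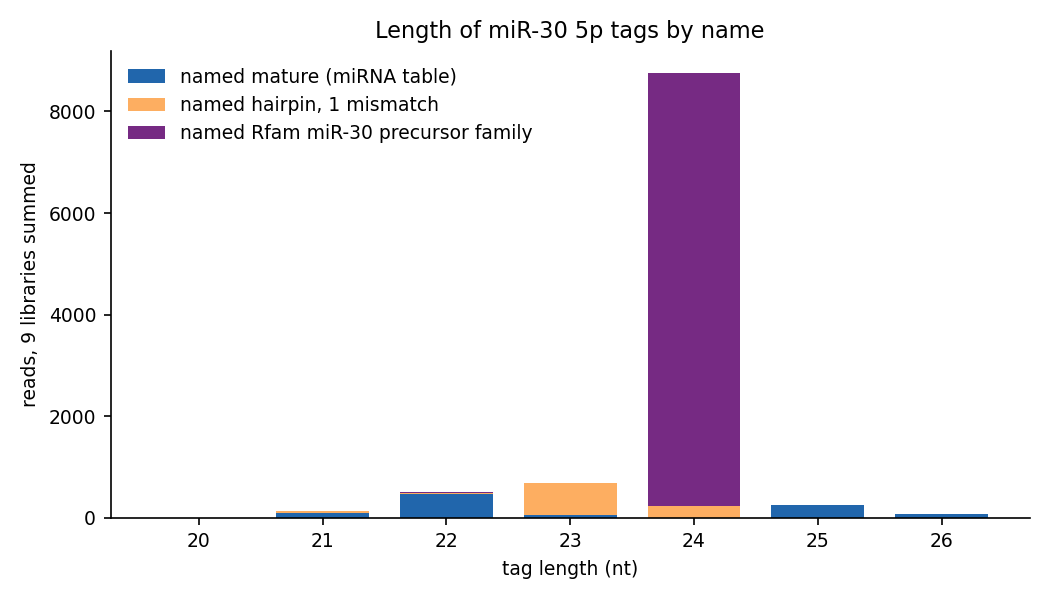
Reads of the miR-30 members by tag length in nt summed over the 9 libraries and stacked by the name the tags received. The 24 nt class held 8526 Rfam reads, 231 hairpin reads and 0 mature reads.

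The members were also recounted alike, with each tag of any name given to the 1 mature microRNA whose first 20 bases it begins with. This recount was chosen after the data were seen. It gave 9519 reads to the family, against 961 in the table. Among 127 microRNAs with at least 100 recounted reads, the median share named mature was 50%, the median named hairpin was 37.2% and the median named to Rfam was 0.0733%. miR-30d-5p had 8.15% mature and 85.4% Rfam reads there and was 1 of 5 microRNAs with over 50% Rfam reads.

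The number of table reads varied widely between libraries. Table reads were 15426, 68845 and 546599 in LPS+AS-IV, 25483, 65715 and 61579 in LPS and 42178, 30861 and 75528 in Control. Reads over all listed tags, of any name, were 9527483, 9098417 and 6699947 in LPS+AS-IV and 9305041, 3484099 and 8936275 in LPS. In Control they were 7223406, 5449156 and 8215970. LPS+AS-IV 1 thus had the fewest table reads but the most reads over all listed tags. A count of 0 allows up to 3 reads, from 5.99 CPM (reads relative to the TMM-adjusted total of the library) in LPS+AS-IV 3 to 216 CPM in LPS+AS-IV 1. Intervals and floors cover counting error only, because PCR reads without molecular identifiers are not independent molecules. Of the myeloid markers, 2 of 3 were in the table and miR-142-3p was not. Their summed level was 0 to 1888 CPM in LPS+AS-IV, 0 to 4265 CPM in LPS and 329 to 1943 CPM in Control. The lymphocyte marker miR-150-5p was higher in every library, at 15795 to 44357, 23388 to 30785 and 25519 to 37066 CPM in LPS+AS-IV, LPS and Control, as were both erythroid markers together, at 32165 to 38661, 28283 to 36378 and 37485 to 48569 CPM. The myeloid marker miR-223-3p was named mature in 18.6% of its 7641 recounted reads, with 61.2% under an Rfam name, and myeloid miR-142-5p in 100% of 102. Among the other markers, the mature share was 26.6% of 119361 recounted reads for erythroid miR-451-5p and 49.3% of 3216 for erythroid miR-486. For lymphocyte miR-150-5p it was 82.6% of 40800. Endothelial miR-126a-3p lay at 4616 to 12866 CPM in LPS+AS-IV, 1571 to 5307 CPM in LPS and 6870 to 12608 CPM in Control. Liver and serum miR-122-5p lay at 4099 to 6203 CPM in LPS+AS-IV, 3561 to 8816 CPM in LPS and 1434 to 3238 CPM in Control. The epithelial list, with 4 of 5 in the table and no entry for miR-141-3p, summed to 0 to 1082, 112 to 1259 and 13.4 to 216 CPM in LPS+AS-IV, LPS and Control. In the table, myeloid markers were thus lower than lymphocyte and erythroid ones in exosomes labelled as macrophage-derived, and the part of other sources in the miR-30 values was not tested. Fewer vesicles and less RNA per vesicle cannot be told apart in such bulk samples.

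miR-30d-5p was the most abundant member, with 722 of the family's 961 table reads and 9744 of all 10436 tag reads. Within LPS the table held fewer reads of it than of miR-30b-5p, 149 against 164. Its table counts were 170, 196 and 1 in LPS+AS-IV, 0, 56 and 93 in LPS and 73, 18 and 115 in Control. LPS+AS-IV 3, the library with the most table reads, had a single read of it, and LPS 1 had none. On the CPM scale the libraries stood at 12261, 2988 and 2.0 in LPS+AS-IV, at 0, 959 and 1491 in LPS and at 1576, 538 and 1545 in Control. The means were 5084 ± 6392, 817 ± 756 and 1220 ± 591 CPM (SD, n = 3 each), so the groups overlapped and the spread of LPS+AS-IV was larger than its mean.

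With its other tags, miR-30d-5p was present in 9 of 9 libraries. A single 24 nt tag, the whole mature sequence with 2 further bases, made up 7532 reads (77.3% of the member). Its reads were 83, 477 and 3858 in LPS+AS-IV, 113, 1138 and 817 in LPS and 312, 280 and 454 in Control. Both libraries that had almost no table reads therefore held this tag. A further 24 nt tag with 1 other base among its first 20 had 802 reads, and LPS+AS-IV 3 was the only library with it. The 23 nt hairpin tag had 539 reads in 9 of 9 libraries, at 69, 1 and 1 in LPS+AS-IV, 69, 164 and 54 in LPS and 86, 47 and 48 in Control.

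The forms of miR-30d-5p that did enter the table changed from library to library. The 22 nt tag, the whole mature sequence, had 20, 40 and 0 reads in LPS+AS-IV, 0, 52 and 93 in LPS and 51, 18 and 5 in Control. Tags of 25 nt had 53, 155 and 0 reads in LPS+AS-IV, 0 in each LPS library and 0, 0 and 48 in Control. In LPS+AS-IV 1, 78 of the 170 table reads were 26 nt long. Tags of 21 nt had 19, 1 and 1 reads in LPS+AS-IV, 0 in each LPS library and 22, 0 and 61 in Control. In LPS, the table reads thus were of the 22 nt form, apart from 4 reads of 23 nt in LPS 2.

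**Figure D3:**
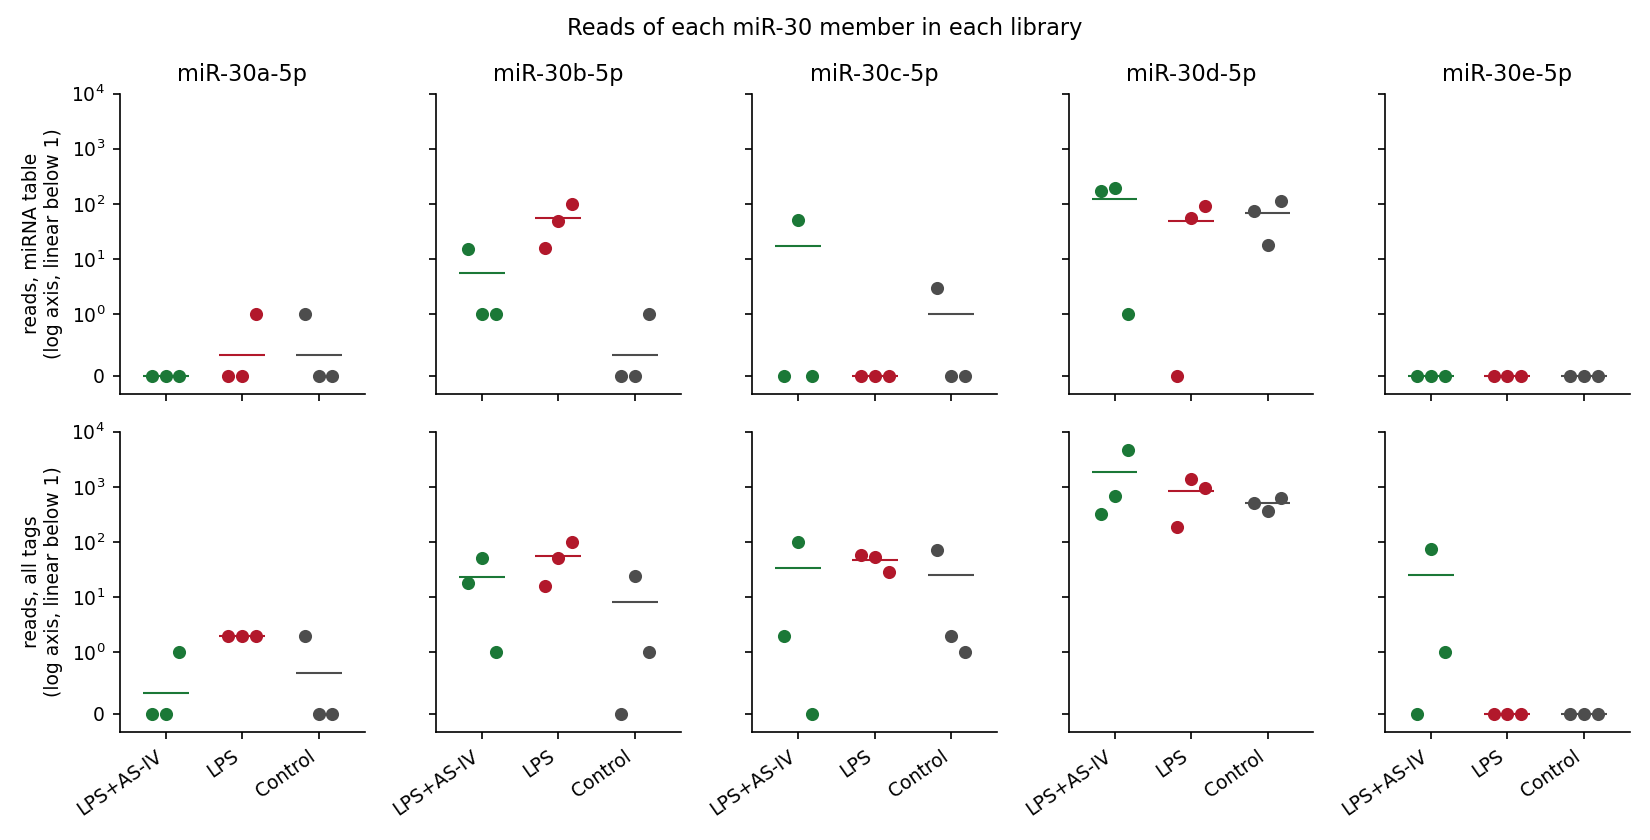
Reads of each miR-30 member in each library of LPS+AS-IV, LPS and Control, in the deposited table (top) and over all tags (bottom), on a log axis that is linear below 1, with points for libraries and lines for group means. miR-30d-5p had 1 table read and 4678 reads over all tags in LPS+AS-IV 3, and miR-30e-5p appeared only among tags outside the table.

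After the recount, the miR-30d-5p libraries lay closer together. The recount left out the tag of 802 reads found only in LPS+AS-IV 3, which differs within the first 20 bases. That library kept 3867 of its 4678 miR-30d-5p reads. LPS+AS-IV 1, 2 and 3 stood at 11342, 4663 and 4215 CPM, LPS 1, 2 and 3 at 3664, 11526 and 8580 CPM, and Control 1, 2 and 3 at 5206, 6647 and 4714 CPM. The highest library was LPS 2 and the lowest LPS 1, and the 3 groups overlapped. The means were 6740 ± 3992 CPM in LPS+AS-IV, 7924 ± 3972 CPM in LPS and 5523 ± 1005 CPM in Control (SD, n = 3 each).

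miR-30b-5p, whose hairpin gene is the neighbour of Mir30d, was the second most read member of the table with 182 reads. Its table counts were 15, 1 and 1 in LPS+AS-IV, 16, 49 and 99 in LPS and 0, 0 and 1 in Control. Every LPS library was above every Control library, and LPS+AS-IV 1 reached the LPS range on the CPM scale. The means were 366 ± 620 CPM in LPS+AS-IV, 1001 ± 525 CPM in LPS and 4.48 ± 7.76 CPM in Control (SD, n = 3 each). All 182 table reads came from a single 22 nt tag. All listed tags with at least 5 reads were binned by count, in bins of equal width on a log2 scale. The fullest bin was centred near 47.6, 67.3 and 134.5 reads in LPS 1, 2 and 3. Such bins widen with the count, so this centre is not the most frequent single count. The 16, 49 and 99 reads of the miR-30b-5p tag were below that centre in each LPS library. How many molecules these reads stand for was not tested. A 23 nt hairpin tag had 50 reads in LPS+AS-IV 2, and another had 24 reads in Control 2. The recount was 18, 51 and 1 reads in LPS+AS-IV, 16, 49 and 99 in LPS and 0, 24 and 1 in Control, and Control 2, at 434 CPM, then lay within the LPS libraries' 319 to 877 CPM.

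miR-30c-5p was read mainly as the 24 nt hairpin tag printed above. The table held 0, 52 and 0 reads in LPS+AS-IV, 0 in each LPS library and 3, 0 and 0 in Control. The 24 nt tag had 2, 47 and 0 reads in LPS+AS-IV, 58, 53 and 1 in LPS and 67, 2 and 1 in Control. The 21 nt tag was read in LPS 3 alone, with 28 reads. By recount the member had 245 ± 365 CPM in LPS+AS-IV, 620 ± 473 CPM in LPS and 271 ± 432 CPM in Control (SD, n = 3 each). LPS was thus at 0 in the table and above the other 2 groups in mean by recount, with overlapping libraries.

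miR-30a-5p was at the limit of detection, and miR-30e-5p was read almost wholly in 1 library. miR-30a-5p had 2 table reads, 1 in LPS 3 and 1 in Control 1, and 9 reads over all tags. The recount gave it 0 reads in each LPS+AS-IV library, 2 in each LPS library and 2, 0 and 0 in Control. These counts are at or under the floor of 3 reads, so no fold is given. miR-30e-5p had 77 reads, all of the 24 nt Rfam form, with 76 in LPS+AS-IV 2, 1 in LPS+AS-IV 3 and 0 in every LPS and Control library. Because miR-30a-5p and miR-30e-5p differ at only 1 base of the mature sequence, their separation rests on that base.

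The order of the members was miR-30d-5p, miR-30c-5p, miR-30b-5p, miR-30e-5p and miR-30a-5p by all tags, at 9744, 316, 266, 77 and 9 reads. In the table, over all libraries, it was miR-30d-5p, miR-30b-5p, miR-30c-5p and miR-30a-5p, at 722, 182, 55 and 2 reads. miR-30b-5p and miR-30c-5p, neighbours in both orders, overlapped in their recounted CPM in every group.

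The family's summed share of table reads was 1.20% in LPS+AS-IV 1, with a 95% Wilson interval of 1.04% to 1.38%, against 0.362% in replicate 2 and 0.000366% in replicate 3 of that group. It was 0.0628%, 0.160% and 0.313% in LPS and 0.183%, 0.0583% and 0.154% in Control. The group means were 0.520% ± 0.615, 0.179% ± 0.126 and 0.131% ± 0.0650 in LPS+AS-IV, LPS and Control (SD, n = 3 each), with LPS+AS-IV resting on its replicates 1 and 2 and spanning both other groups. By recount, over the recounted reads, the shares were 1.19%, 0.705% and 0.383% in LPS+AS-IV, 0.542%, 1.20% and 0.934% in LPS and 0.653%, 0.661% and 0.441% in Control. Their means were 0.758% ± 0.404, 0.892% ± 0.331 and 0.585% ± 0.125 (SD, n = 3 each). The order of LPS+AS-IV and LPS was thus turned round by the way tags were counted, and within either count the groups overlapped.

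**Figure D4:**
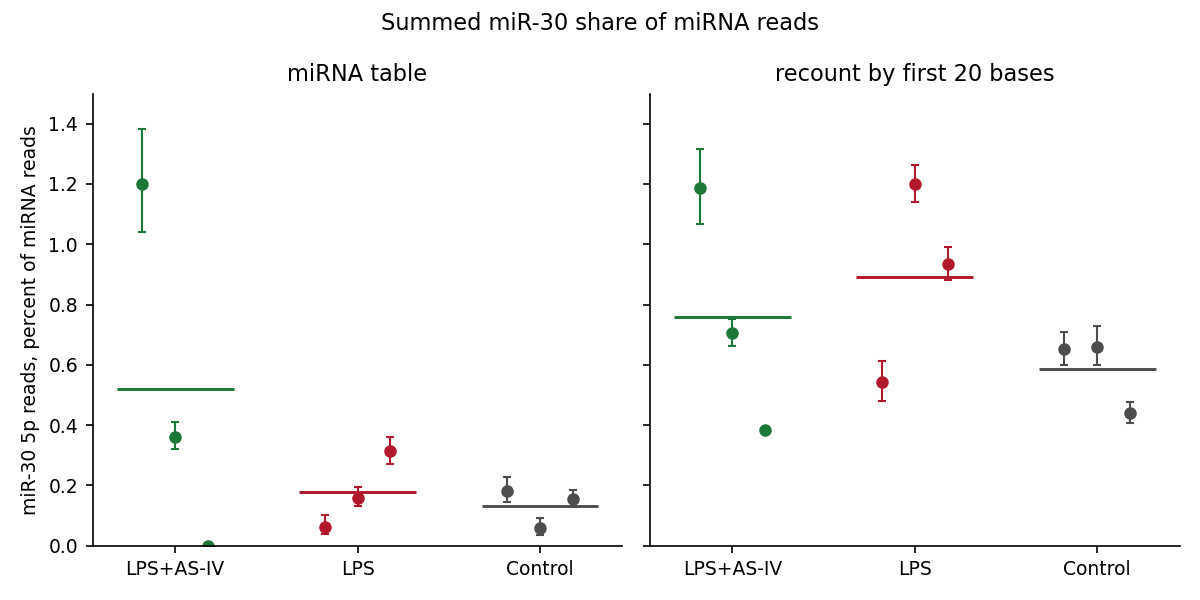
Summed share of the miR-30 members in each library, in percent of the table's reads and in percent of the recounted reads, with points for libraries of LPS+AS-IV, LPS and Control, bars for 95% Wilson intervals and lines for group means. The table shares spread from 0.000366% to 1.20% within LPS+AS-IV, and the recounted shares from 0.383% to 1.19%.

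The comparison of LPS with Control asked how endotoxin alters the exosomal microRNAs. miR-30b-5p had 16, 49 and 99 table reads in LPS and 0, 0 and 1 in Control, and it was the 1 of the 2 tested members whose groups did not overlap. It passed the filter on low counts only through the libraries where it was high, those of LPS and LPS+AS-IV 1. Its lack of overlap and its p are therefore not independent of that filter. Among the 94 microRNAs tested, 7.45% lay wholly higher in LPS and 19.1% did not overlap in either direction. Liver and serum miR-122-5p also lay wholly higher in LPS than in Control (3561 to 8816 against 1434 to 3238 CPM). Endothelial miR-126a-3p lay wholly lower in LPS (1571 to 5307 against 6870 to 12608 CPM). So did both erythroid markers together (28283 to 36378 against 37485 to 48569 CPM). The myeloid, lymphocyte and epithelial levels overlapped. The part of other sources in the miR-30b-5p values was not tested. On the log2 scale miR-30b-5p differed by 7.24 (SE 3.34). Its p in edgeR's quasi-likelihood test was 0.0487 unadjusted and 0.662 adjusted, so it did not pass the threshold of 0.05. Pooled, its share of the table was 159 times as high, with an exact 95% counting interval from 28.2 to 6337. That interval rests on 164 reads in LPS and 1 in Control. It covers counting error only and leaves out the spread between libraries and copies made by PCR, so it is no test of the groups. miR-30d-5p differed by -0.57 on the log2 scale (SE 1.89, edgeR adjusted p 0.964). Neither member was called, and 1.06% of the 94 were, with 6.38% at an unadjusted p under 0.05.

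By recount, LPS against Control gave log2 fold changes of 1.88 (SE 2.47) for miR-30b-5p, 1.19 (SE 2.42) for miR-30c-5p and 0.52 (SE 0.54) for miR-30d-5p. The edgeR adjusted p of miR-30d-5p was 0.998, none of the 3 members was called, and 0% of the 110 microRNAs tested were, with 5.45% at an unadjusted p under 0.05. None of the 3 had groups without overlap, against 15.5% of the 110. miR-30d-5p changed sign between the 2 ways of counting, and its standard error was 0.54 by recount and 1.89 in the table.

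The comparison of LPS+AS-IV with LPS asked whether astragaloside IV alters the response to endotoxin. In the table, miR-30d-5p averaged 5084 CPM in LPS+AS-IV, against 817 CPM in LPS, a log2 fold change of 2.63 (SE 2.0, edgeR adjusted p 0.963) that was 0.62 without LPS+AS-IV replicate 1. miR-30b-5p averaged 366 CPM in LPS+AS-IV, against 1001 CPM in LPS, a log2 fold change of -1.49 (SE 2.57, edgeR adjusted p 0.963) that was -7.01 without the same library. No member was called, nor was any of the 94 (0%), with 3.19% at an unadjusted p under 0.05, and neither member's groups were without overlap, against 7.45% of the 94. By recount the log2 fold changes were -0.74 (SE 2.40) for miR-30b-5p, -1.33 (SE 2.43) for miR-30c-5p and -0.24 (SE 0.54, edgeR adjusted p 0.956) for miR-30d-5p. The sign of miR-30d-5p was turned round by the recount. Of the 110 tested by recount 0% were called, 3.64% had an unadjusted p under 0.05, and 7.27% had groups without overlap, none of them a member.

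In LPS+AS-IV against Control, the table gave log2 fold changes of 5.74 (SE 3.16, edgeR adjusted p 0.835) for miR-30b-5p and 2.05 (SE 1.96, edgeR adjusted p 0.981) for miR-30d-5p. Without LPS+AS-IV replicate 1 they were 0.43 and 0.21 in the same order. Neither was called, while 2.13% of the 94 were, 3.19% had an unadjusted p under 0.05, and 10.6% had groups without overlap, neither member among them. By recount the log2 fold changes were 1.14 (SE 2.43) for miR-30b-5p, -0.14 (SE 2.39) for miR-30c-5p and 0.29 (SE 0.54, edgeR adjusted p 0.968) for miR-30d-5p. Of the 110 tested by recount, 0% were called, 2.73% had an unadjusted p under 0.05 and 15.5% had groups without overlap, with no tested member among them. The comparisons share libraries, so their values are not independent of each other.

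**Figure D5:**
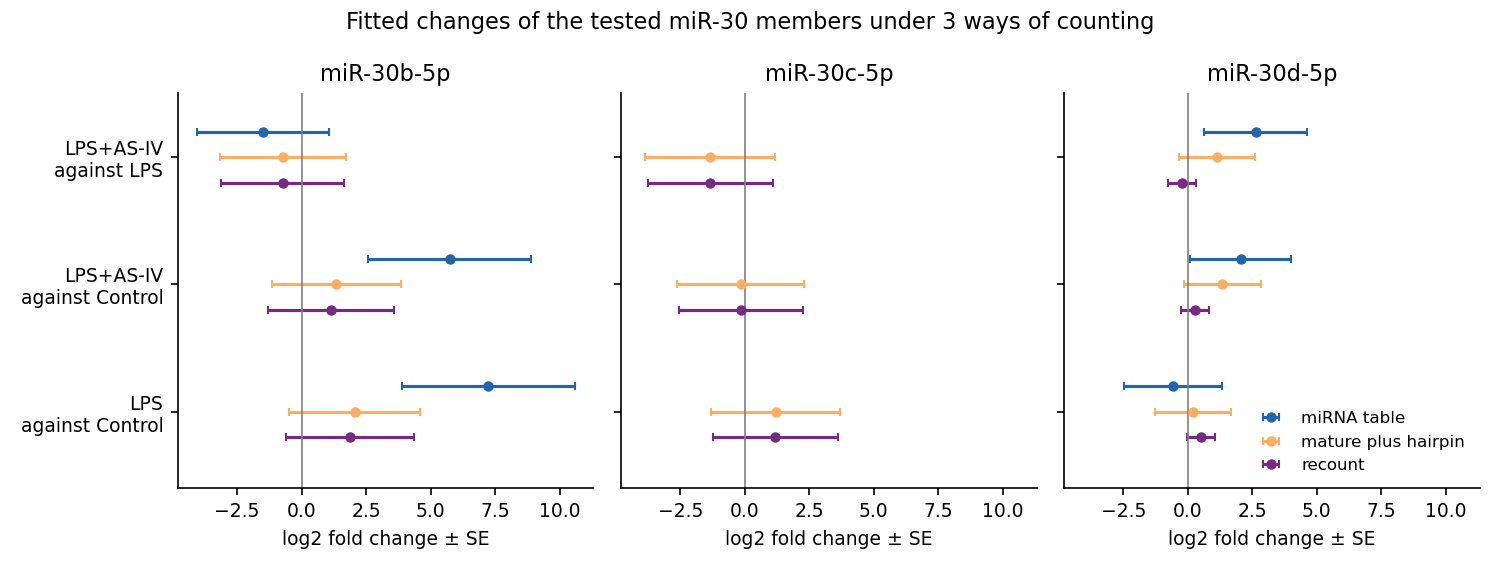
Fitted log2 fold changes (points) with their standard errors (bars) for miR-30b-5p, miR-30c-5p and miR-30d-5p in the 3 comparisons, from the table, from mature plus hairpin tags and from the recount. In LPS+AS-IV against LPS, miR-30d-5p lies at 2.63 in the table and at -0.24 by recount, and miR-30c-5p has no table value because it fell below the filter on low counts.

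The opposite arms of the miR-30 hairpins were sparse. miR-30a-3p had 21 table reads, all in LPS+AS-IV 2, and 47 hairpin reads, of which 44 were in Control 2. miR-30e-3p had 0, 0 and 1 table reads in LPS+AS-IV, 8, 0 and 0 in LPS and 33, 17 and 0 in Control. It also had 70 hairpin reads, of which 41 were in LPS+AS-IV 2, the library with 76 of the 77 reads of miR-30e-5p, and 25 in Control 1. The 3p arms of the miR-30c hairpins had no entry in the table, with 12 hairpin reads of miR-30c-1-3p in LPS 1 and 6 of miR-30c-2-3p in LPS+AS-IV 1.

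Other microRNAs known to restrain epithelial-to-mesenchymal transition or fibrosis were set beside the family, as a list of 12 with 8 in the table and 2 tested, miR-429 of the miR-200 family and miR-204-5p, which the series title names. None passed the test in any comparison. miR-204-5p averaged 1862 ± 534 CPM in LPS+AS-IV, 149 ± 156 CPM in LPS and 1360 ± 444 CPM in Control (SD, n = 3 each), a log2 fold change of 3.63 (SE 2.0, edgeR adjusted p 0.963) in LPS+AS-IV against LPS and of -3.18 (SE 1.96, edgeR adjusted p 0.802) in LPS against Control. miR-429 averaged 288 ± 500, 468 ± 654 and 105 ± 79.0 CPM in LPS+AS-IV, LPS and Control (SD, n = 3 each), with a log2 fold change of 2.15 (SE 2.93, edgeR adjusted p 0.964) in LPS against Control. The median of the list's 2 tested members was 1.44 in LPS+AS-IV against LPS, with 1 higher and 1 lower, beside a median of 0.19 over the 94, of which 57 were higher and 37 lower. In LPS against Control the list's median was -0.51, with 1 higher and 1 lower, beside -0.04 over the 94, and in LPS+AS-IV against Control it was 0.93, with both higher, beside 0.21.

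The microRNAs most like the summed family across the 9 libraries were ranked by Spearman correlation of CPM, as a description of points that share library and depth. In the table these were miR-28-3p (rho 0.78), miR-146b-5p (0.70) and miR-22-3p (0.67), with a median of 0.07 over 92 compared. By recount they were miR-146b-5p (0.93), let-7d-3p (0.73) and miR-28-3p (0.73), with a median of -0.08 over 107 compared.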

How the data were processed

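The authors deposited a table of whole-number read counts for 201 mature microRNAs in 9 libraries and, per library, a list of tags with their counts and assigned name. Tag lengths were taken from the sequences. Per the file headers these lists also hold a score, which did not enter the counts of the members. A further count column, headed exp in the deposited table, entered 1 alternative; the sources used here do not say how it was made. The submitters' processing notes name Bowtie2 and the build Rnor_6.0, with no role or version. Trimming, alignment settings and the microRNA release used are likewise not given. As the RefSeq tables are of GRCr8, coordinates were left out.

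Table reads were equal to summed mature tags in 36 of 36 values of the members. Rfam tags were given to the nearest member with at most 2 mismatches, 24 reads staying unassigned. Extra bases were counted against the RefSeq mature sequence or, for miR-30b-5p and miR-30d-5p, the most-read mature tag. RefSeq held 182 of the 201 names. The recount used the first 20 bases of 712 names, 693 of them from RefSeq, and left out 7 shared beginnings.

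The quasi-likelihood test of edgeR 4.0.16 (in R 4.3.3) was used with TMM factors, default filterByExpr and group as the only term in a single fit of all 9 libraries, adjusted by Benjamini-Hochberg over all microRNAs tested. It covered 94 in the table and 110 in the recount, with a biological coefficient of variation of 1.42 and 1.31. Of the members, miR-30b-5p and miR-30d-5p passed the filter in the table, and miR-30a-5p and miR-30c-5p did not. Each SE is the absolute log2 fold change over the square root of the F statistic. The procedure was tested on simulated data, with changes of set sizes, a common spread for all microRNAs and a single draw for each setting. It recovered the changed microRNAs at a low spread between replicates, but none of them at the spread of these libraries. A member that was not called is thus not shown to be unchanged. Changes above those sizes were not simulated, and the fit of the table itself called 1 of the 94 in LPS against Control. Alternatives covered the normalization, DESeq2 1.42.0, the filter, the libraries in the fit, the replicate number, the exp column and the naming of tags. Tables were made with Python 3.11.15, pandas 2.3.3 and SciPy 1.17.1. No replicate pair was identical. Chi-square per degree of freedom was 30.5 to 59.0 within Control and 52.8 to 96.4 within LPS. Within LPS+AS-IV it was 72.3 for replicates 1 and 2, 368.9 for 1 and 3 and 820.5 for 2 and 3. These values are not adjusted for the number of table reads, which was highest in LPS+AS-IV 3.

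The text names the 5 members, the miR-30 3p arms, microRNAs with the same seed, up to 4 tested members of the list, the 3 most alike microRNAs and, for each member, tags with at least 1% of its reads. Other tags were named after their values were seen. Members and lists were chosen with earlier results of these data known.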

Additional observations from a re-analysis of the deposited data

Results flagged for a closer look

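Hairpin tags, or Rfam tags, taken separately, exceeded every Control library in 2 libraries each. Hairpin tags of the members came to 0.480% of the table's reads in LPS+AS-IV 1 and 0.506% in LPS 1, against at most 0.375% in Control. Rfam tags that begin like the members came to 1.75% in LPS 2 and 1.34% in LPS 3, against at most 0.988% in Control. Only 1 or 2 libraries of a group stood out for either name, and the difference between groups was not tested.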

How the results depend on the processing

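No miR-30 member passed the threshold under any alternative. Against the table's -0.57, miR-30d-5p in LPS against Control was 0.21 with mature plus hairpin tags and 0.52 by recount. In LPS+AS-IV against LPS it was -0.24 by recount, against 2.63. Leaving out 1 library at a time gave miR-30d-5p -1.39 to 0.0047 in LPS against Control, 0.62 to 3.36 in LPS+AS-IV against LPS and 0.21 to 2.57 in LPS+AS-IV against Control, and by recount 0.15 to 0.96, -0.90 to 0.23 and -0.24 to 0.85. The sign changed without LPS replicate 1 in the first range and, by recount, without LPS+AS-IV replicate 3 or LPS replicate 2 in the second comparison and without LPS+AS-IV replicate 1 in the other. For miR-30b-5p, in the same comparisons, it gave 6.83 to 9.77, -7.01 to -0.95 and 0.43 to 8.12, and by recount 1.42 to 7.0, -1.59 to -0.05 and 0.44 to 6.31. The summed family, with no test, had log2 changes of 0.61, 1.36 and 1.97 in the same comparisons, -0.05 to 1.03, -0.20 to 2.18 and 0.34 to 2.69 with 1 library left out, and 0.62, -0.20 and 0.43 by recount, with 0.36 to 0.93, -0.74 to 0.11 and 0.0044 to 0.69 when 1 library was also left out. Its sign changed without LPS replicate 3 in LPS against Control and, in LPS+AS-IV against LPS, without LPS+AS-IV replicate 1 or, by recount, LPS replicate 2.

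Same-numbered libraries of different groups correlated from -0.08 to 0.17 and differently numbered ones from -0.20 to 0.23. With so few libraries, these values cannot decide whether the replicate numbers pair them. With the replicate block, miR-30b-5p was at 7.73, -3.36 and 4.37 and miR-30d-5p at -0.27, 2.14 and 1.88. The microRNAs called in LPS against Control, 1 in the table, were 2 with library totals, no filter, the replicate block or the exp column, 3 with the 2 groups alone or DESeq2, 0 with 1 name per tag or by recount, 1 to 3 with 1 library left out and 0 to 2 by recount with 1 left out. They were 3 without LPS replicate 1 or Control replicate 1, 2 without LPS+AS-IV replicate 2 or 3 or Control replicate 3, and by recount 2 without LPS+AS-IV replicate 3. In LPS+AS-IV against LPS they were 0 in the table, 1 with no filter, the replicate block or DESeq2, 0 to 1 with 1 library left out (1 without LPS+AS-IV replicate 2, LPS replicate 1 or Control replicate 1) and 0 by recount with 1 left out. In LPS+AS-IV against Control they were 2 in the table, 0 with 1 name per tag or by recount, 2 to 3 with 1 library left out and 0 to 1 by recount with 1 left out (1 without LPS+AS-IV replicate 3).

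The family's share over all its tags was 1.47% in LPS+AS-IV, 1.69% in LPS and 1.16% in Control. With mature plus hairpin tags it was 0.736% ± 0.853 in LPS+AS-IV, 0.506% ± 0.0558 in LPS and 0.357% ± 0.176 in Control (SD, n = 3 each). Both run high, with only family tags added to the table total. By recount the share was 0.758% in LPS+AS-IV, 0.892% in LPS and 0.585% in Control. With 1 library left out the table share was 0.181% to 0.780% in LPS+AS-IV, the lowest without LPS+AS-IV replicate 1, 0.111% to 0.237% in LPS and 0.106% to 0.168% in Control. The causes of these changes were not tested. A count of 0 allows up to 3 reads, 216 CPM in LPS+AS-IV 1, which had the fewest table reads, and 5.99 CPM in LPS+AS-IV 3, which had the most.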
